A study of Arabidopsis thaliana with 32 samples.

Results

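Class III peroxidases are the secreted haem peroxidases of plants, a family of 73 Arabidopsis thaliana genes by the lists used here. The 57 members described here are a list of gene identifiers from that family, chosen with earlier results of these data known. The shares of members called below are therefore not independent of these data. The authors' deposited tables hold a row for 32 of these 57 members, among 5162 genes with a row in at least 1 of the 8 tables. Of the 16 family genes left out, 1 had a row. In the TAIR10.1 annotation the members lie on all 5 nuclear chromosomes, with 11, 9, 8, 10 and 19 members on chromosomes 1 to 5. Of the 57, 41 have 4 exons in their longest transcript, and 24 sit in 11 clusters of neighbours no more than 10000 bp apart.

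These enzymes pass electrons from phenolic compounds to hydrogen peroxide in the cell wall. The phenolic radicals they make are coupled into lignin and other wall polymers, which stiffens the wall, while the same enzymes can also generate reactive oxygen species that loosen it. In roots they are known for lignification of xylem and of the Casparian strip, for the growth of root hairs, for defence, and for the balance of reactive oxygen species between the dividing and the elongating zone that the transcription factor UPBEAT1 sets by repressing a few of them.

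Root messenger RNA was sequenced in 8 groups of 4 biological replicates, 32 libraries in all, which cross flight or ground growth with an age of 8 or 4 days and with the accession Col-0 or WS. Flight seedlings germinated and grew in the Veggie plant growth unit of the International Space Station, on vertical plates of solid medium under overhead light-emitting diodes. Ground seedlings grew in a matching unit inside a chamber that repeated the temperature, carbon dioxide and light of the station 48 h later. No allele or transgene is given beyond the accession, all plants started from dry seeds held dormant in the cold until unwrapped into light, all were fixed in RNAlater, and a replicate is a pool of dissected roots, 2 to 3 per pool for the older plants and 5 to 8 for the younger. Each table compares 2 groups, flight with ground at 1 age or 8 with 4 days under 1 growth condition, within 1 accession, and lists only loci with a q-value of at most 0.05, the limit for a call here. It holds 1 level per group, as a fragment count scaled by transcript length and sequencing depth (FPKM), and no value per library. Spread between replicates is therefore seen only through the standard error (SE) implied by the authors' test statistic. In most rows of members the authors' p-value is smaller than a normal reference on this SE would give. The SE printed after ± is thus wide beside the authors' own test. A member with no row is not shown to be unchanged. In whole roots, fewer cells of a type and less RNA per cell cannot be told apart.

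Flight roots carried less peroxidase messenger RNA for nearly every member that was called. Over the 4 flight tables, 24 members were called, of which 21 were only lower in flight, 3 were only higher and 0 went both ways. In Col-0 at 8 days, the authors' deposited table called 3 members higher and 9 lower of 57, where 1.26% of all loci tested were called higher and 2.8% lower. In Col-0 at 4 days it called 2 higher and 16 lower, against 3.1% higher and 4.11% lower over all loci. In WS at 8 days it called 2 higher and 11 lower, against 2.36% and 2.75%, and in WS at 4 days 0 higher and 3 lower, against 0.352% and 0.363%. Member counts are of genes and the shares of all loci are of loci. The 13 members called in WS at 8 days are 12 loci, and 3 of these members lie in merged loci. With loci of 1 gene only, 8 were lower there and 2 in WS at 4 days. The members called lower were thus 15.8%, 28.1%, 19.3% and 5.26% of the 57 in these 4 tables, each above the share of all loci. The members called higher were 5.26%, 3.51%, 3.51% and 0%, close to that share except in Col-0 at 8 days. The median log2 fold change of the called members was -0.36 in Col-0 at 8 days, -0.71 in Col-0 at 4 days, -0.48 in WS at 8 days and -0.76 in WS at 4 days, beside -0.41, -0.46, -0.33 and -0.62 over all called loci.

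**Figure D1:**
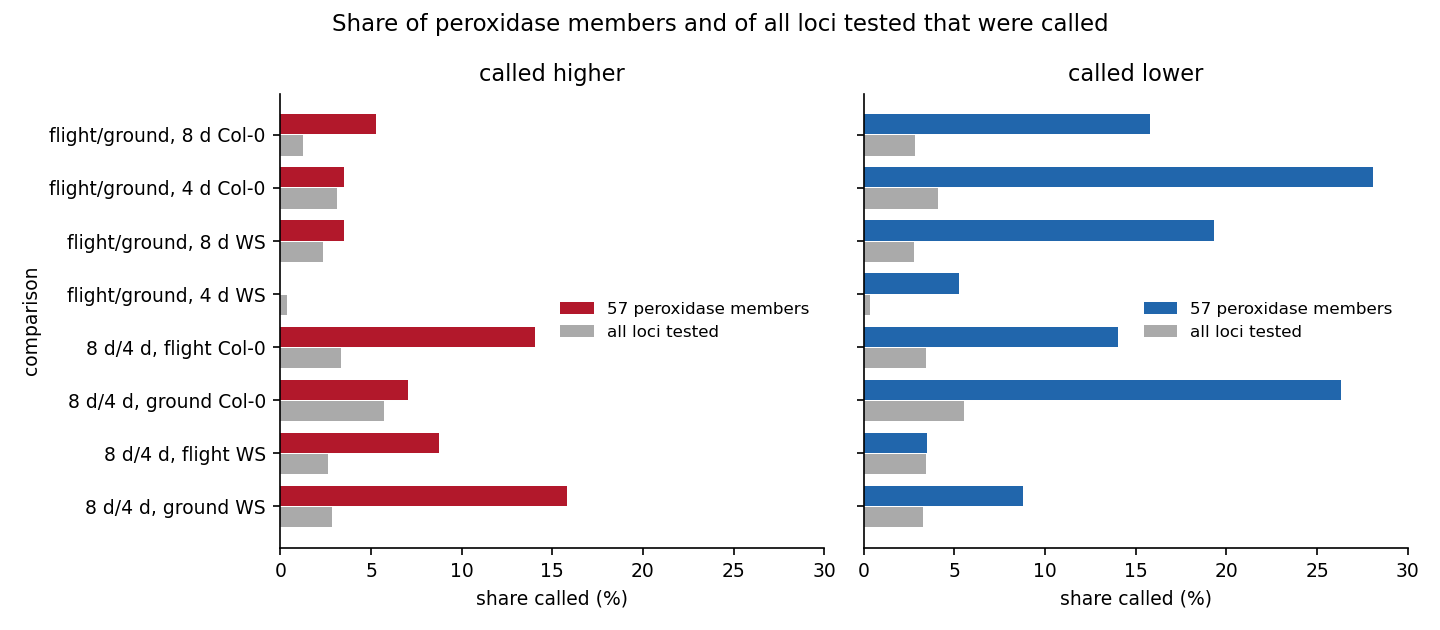
Share of the 57 peroxidase members (coloured bars) and of all loci tested (grey bars) that were called higher (left panel) or lower (right panel) in each of the 8 comparisons, in percent. The lower calls in the flight comparisons reach 28.1% of members in Col-0 at 4 days, against 4.11% of all loci.

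In the flight tables, called members had higher levels than called loci in general. Their median level in the higher group was 97.9 FPKM in Col-0 at 8 days and 166 FPKM in Col-0 at 4 days in the authors' deposited tables, beside 47.2 and 46.2 FPKM over all called loci, and it was 85.7 FPKM in WS at 8 days and 93.9 FPKM in WS at 4 days, beside 45.9 and 64.4 FPKM. With age the members' median was also the higher in flight Col-0 (112 FPKM, beside 33.1 FPKM over all called loci), ground Col-0 (141 beside 34.9 FPKM) and ground WS (107 beside 30.9 FPKM). In flight WS it was the lower, at 17.4 FPKM for the members beside 35.2 FPKM. The part of level in the share of members called was not tested. All 57 members have a longest transcript of 800 to under 2500 nt, with a median of 1372 nt. Of all called single-gene loci in that length class, 31.1% were higher in flight in Col-0 at 8 days, 39.9% in Col-0 at 4 days, 34.4% in WS at 8 days and 53.3% in WS at 4 days. Under 800 nt these shares were 17.2%, 82.1%, 17.1% and 52.6%, and at 2500 nt or more 53.0%, 31.8%, 92.6% and 75%. The last share is that of 4 loci. The shares of all loci given above thus mix length classes that moved differently. The part of length in the members' calls was not tested.

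**Figure D2:**
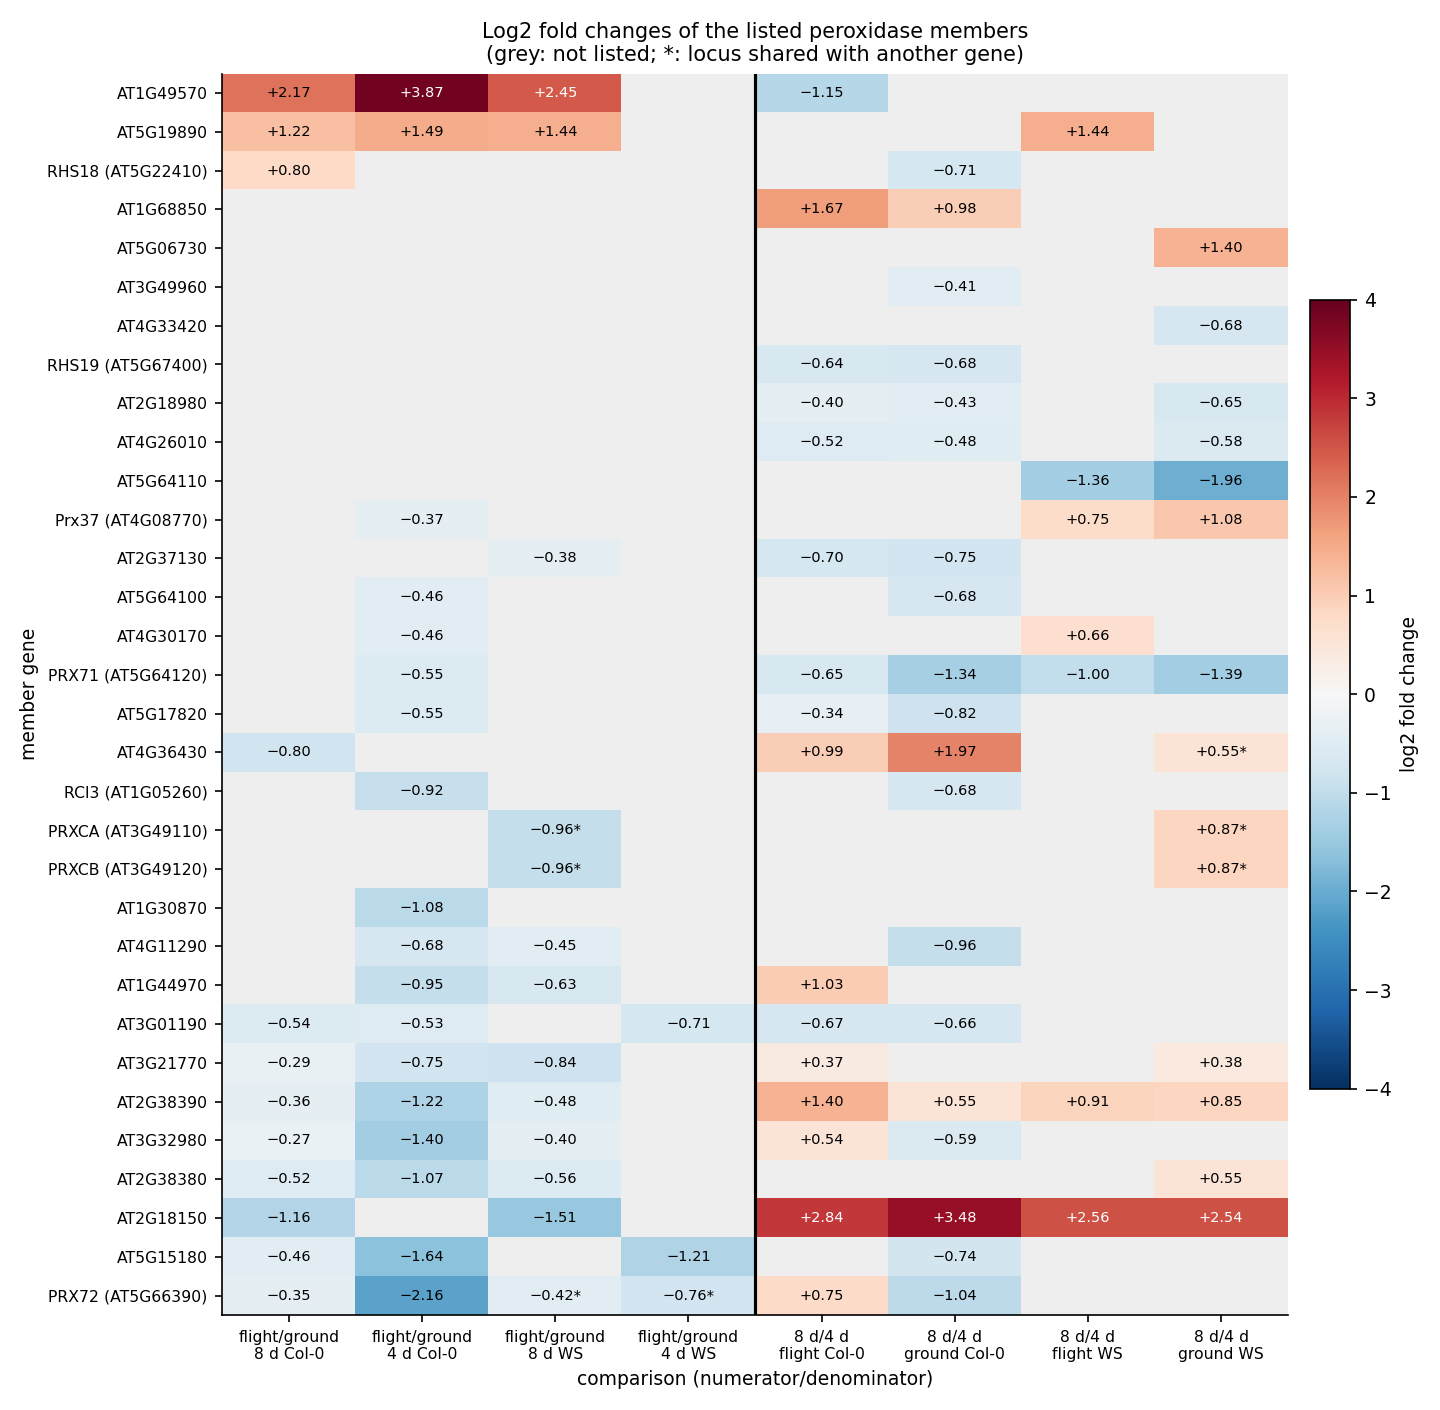
Log2 fold changes of the 32 listed members (rows) in the 8 comparisons (columns, numerator over denominator), with flight comparisons left of the black line and age comparisons right of it. Blue is lower and red is higher in the numerator, grey cells have no row in that table, and an asterisk marks a locus shared with another gene; blue fills most of the flight side, and rows of both colours fill the age side.

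Among the members tied to lignin, xylem and root barriers, PRX72 had the lowest flight fold change of the 24 members called in a flight table. PRX72 (AT5G66390, chr5:26515905-26517599, minus strand, 4 exons) encodes a peroxidase of lignin formation. In Col-0 at 4 days, the authors' deposited table gave it 35.5 FPKM in flight and 158 FPKM on the ground, a log2 fold change of -2.16 ± 0.27 (SE; q-value 0.00185). In Col-0 at 8 days the authors' deposited table gave 63.7 FPKM in flight and 81.3 FPKM on the ground, a log2 fold change of -0.35 ± 0.19. It is the 1 member called in all 4 flight tables, lower in each. Its WS rows are those of a locus merged with the neighbouring gene AT5G66380, with log2 fold changes of -0.42 ± 0.22 at 8 days and -0.76 ± 0.37 at 4 days in the authors' deposited tables, so the WS signal is not that of PRX72 alone.

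PRX71 (AT5G64120), a wall-bound peroxidase also linked to lignification, had 30.4 FPKM in flight and 44.5 FPKM on the ground in Col-0 at 4 days in the authors' deposited table, a log2 fold change of -0.55 ± 0.31. AT2G37130, placed on this list and annotated with a part in defence against fungi, fell in WS at 8 days, where the authors' deposited table gave 80.2 FPKM in flight and 105 FPKM on the ground. Of the 10 members of this list, 1 was called in Col-0 at 8 days, 2 in Col-0 at 4 days, 2 in WS at 8 days and 1 in WS at 4 days, all lower in flight, where 2.8%, 4.11%, 2.75% and 0.363% of all loci were lower. AT5G51890, annotated with lignification of tracheary elements, was called in none of the 8 tables, nor were PRX25, PRX52 or PER4.

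Other genes of wall polymer formation were lower in the same comparison. In Col-0 at 4 days, 0 of 15 genes of monolignol synthesis were called higher and 7 lower in the authors' deposited table, 0 of 17 laccases higher and 5 lower, and 0 of 9 Casparian strip genes higher and 4 lower, against 3.1% of all loci higher and 4.11% lower. CYP98A3, a hydroxylase of the monolignol pathway, had 52.5 FPKM in flight and 111 FPKM on the ground there (authors' deposited table), a log2 fold change of -1.08 ± 0.39. LAC17, a laccase that polymerises lignin, had a log2 fold change of -1.44 ± 0.50, and ESB1, a dirigent protein of the Casparian strip, one of -1.30 ± 0.33 in the authors' deposited table. At 8 days these lists held fewer calls, with 1 monolignol gene, 2 laccases and 1 Casparian strip gene lower and 0 higher in Col-0, and 1 monolignol gene higher, 1 lower and 3 laccases lower in WS. In WS at 4 days 0 genes of the 3 lists were called. Of the xylem markers, 1 of 6 was called in Col-0 at 4 days, XCP2, a protease of xylem vessels, with 30.9 FPKM in flight and 54.4 FPKM on the ground in the authors' deposited table. Of the endodermis markers 3 of 7 were lower there, with a summed level of 65.2 FPKM in flight and 158 FPKM on the ground (authors' deposited table), and these 3 are also Casparian strip genes. The part of these cell types in the PRX72 result was not tested.

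Several of the listed members with high levels fell as well. AT3G32980 (chr3:13526071-13530098, minus strand) had the highest level among the 32 listed members, and in Col-0 at 4 days the authors' deposited table gave it 519 FPKM in flight and 1371 FPKM on the ground, a log2 fold change of -1.40 ± 0.23. At 8 days the authors' deposited tables gave 799 FPKM in flight and 962 FPKM on the ground in Col-0, and 478 FPKM in flight and 630 FPKM on the ground in WS. The flight group was the lower of each pair, by -0.27 ± 0.14 in Col-0 and -0.40 ± 0.22 in WS on the log2 scale of the authors' deposited tables.

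AT2G38380 and AT2G38390 (chr2:16076289-16078781 and chr2:16079679-16081671, plus strand) are a tandem pair, the first annotated with responses to zinc and salt, the second with response to salt. AT2G38380 had 390 FPKM in flight and 560 FPKM on the ground in Col-0 at 8 days, and 301 FPKM in flight and 631 FPKM on the ground at 4 days (authors' deposited tables). In WS at 8 days it had 200 FPKM in flight and 295 FPKM on the ground in the authors' deposited table. AT2G38390 had 203 FPKM in flight and 262 FPKM on the ground in Col-0 at 8 days, and 72.4 FPKM in flight and 169 FPKM on the ground at 4 days (authors' deposited tables). WS roots of 8 days had 218 FPKM in flight and 304 FPKM on the ground in the authors' deposited table. Both were called lower in the same 3 flight tables, with log2 fold changes between -0.36 and -1.22. Their coding sequences are 90.6% identical with a longest identical run of 62 nt, so reads could be shared between them and their separate values are uncertain to that extent.

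AT3G21770 was lower in the same 3 tables, with log2 fold changes of -0.29 ± 0.16 in Col-0 at 8 days, -0.75 ± 0.23 in Col-0 at 4 days and -0.84 ± 0.19 in WS at 8 days in the authors' deposited tables. AT1G44970, a weakly expressed member, was lower in Col-0 at 4 days (-0.95 ± 0.48) and in WS at 8 days (-0.63 ± 0.41) in the authors' deposited tables. AT4G30170 was called in 1 flight table, with 284 FPKM in flight and 391 FPKM on the ground in Col-0 at 4 days (authors' deposited table). AT5G15180 (chr5:4930425-4932406, plus strand) was called lower in both accessions at 4 days. In Col-0 at 4 days the authors' deposited table gave it 9.45 FPKM in flight and 29.4 FPKM on the ground (-1.64 ± 0.38), and in WS at 4 days 9.64 FPKM in flight and 22.3 FPKM on the ground (-1.21 ± 0.55). In Col-0 at 8 days it had 13.5 FPKM in flight and 18.6 FPKM on the ground in the authors' deposited table, with a q-value of 0.0467.

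**Figure D3:**
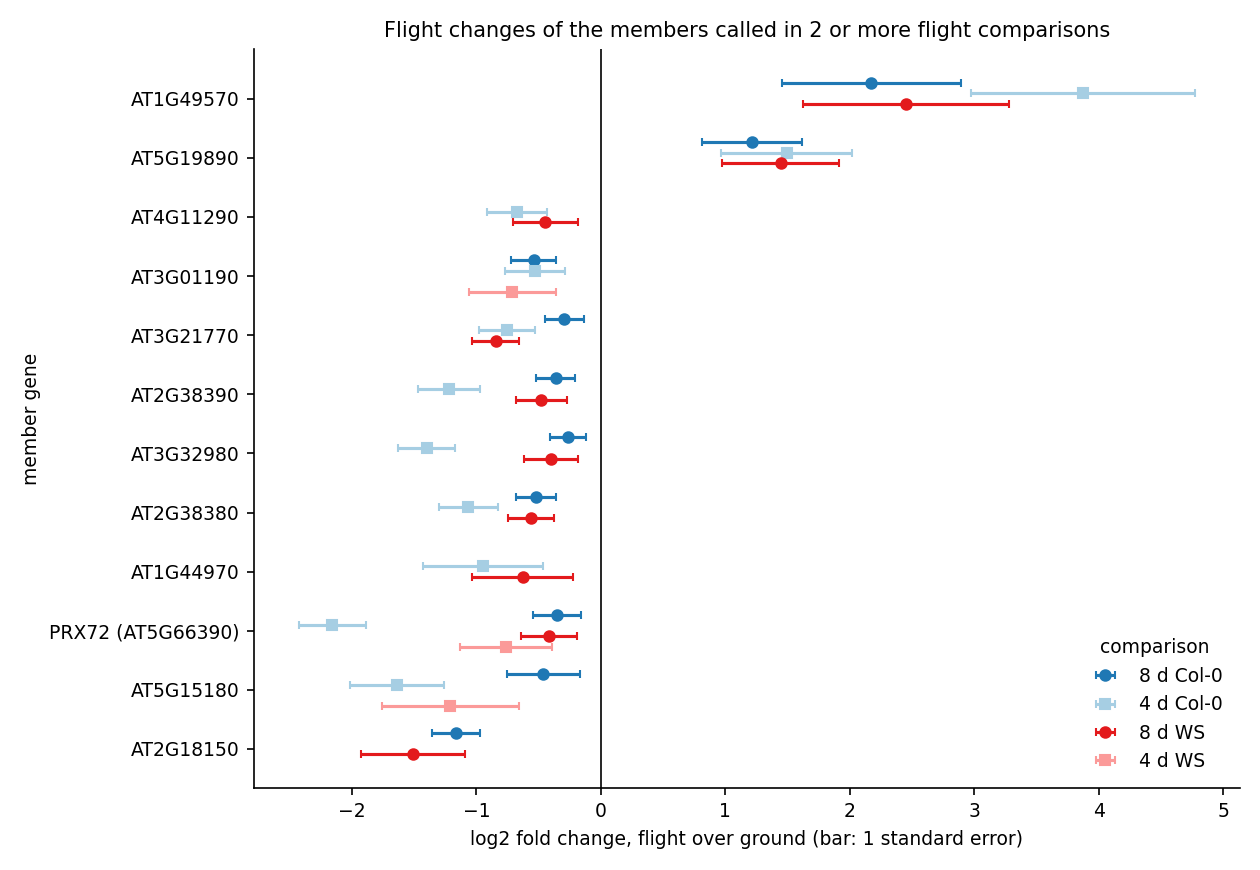
Log2 fold change, flight over ground, of the 12 members called in 2 or more flight comparisons (rows), with 1 SE as a bar; blue is Col-0, red is WS, circles are 8 days and squares are 4 days. A missing point has no row in that table, and both WS points of PRX72 are those of a merged locus; 10 members lie left of 0 in every table that lists them and 2 lie right of it.

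Of the 12 members active in root hairs and epidermis, 1 was called in 3 flight tables. AT3G01190 (chr3:67032-68665, minus strand) had 75.6 FPKM in flight and 110 FPKM on the ground in Col-0 at 8 days in the authors' deposited table, and 114 FPKM in flight and 164 FPKM on the ground at 4 days. In WS at 4 days it had 76.1 FPKM in flight and 124 FPKM on the ground in the authors' deposited table, so the log2 fold changes of -0.54 ± 0.18, -0.53 ± 0.24 and -0.71 ± 0.35 lie within their errors of each other. In Col-0 at 4 days, 0 members of the list were called higher and 4 lower, against 3.1% and 4.11% of all loci, the other 3 being AT1G30870 (-1.08 ± 0.65), AT5G17820 (-0.55 ± 0.23) and AT5G64100 (-0.46 ± 0.23) in the authors' deposited table. RHS18 (AT5G22410, root hair specific 18) went the other way in Col-0 at 8 days, with 23.8 FPKM in flight and 13.7 FPKM on the ground in the authors' deposited table, a log2 fold change of 0.80 ± 0.34. In WS at 8 days 0 members of the list were called. The root hair markers EXT12 and PRP1, 2 of 10 on that list and both wall proteins of root hairs, were higher in flight at 8 days, with a summed level of 178 FPKM in flight and 87.8 FPKM on the ground in Col-0 and of 138 FPKM in flight and 75.3 FPKM on the ground in WS in the authors' deposited tables. Over all loci, 1.26% were higher in flight in Col-0 and 2.36% in WS at 8 days. At 4 days 0 root hair markers were called in either accession. The part of root hair number in these values was not tested.

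The 2 members of the list that UPBEAT1 is known to repress, AT4G11290 and AT5G17820, were both lower in Col-0 at 4 days. AT4G11290 had 107 FPKM in flight and 171 FPKM on the ground there, and 64.6 FPKM in flight and 88.1 FPKM on the ground in WS at 8 days, in the authors' deposited tables. AT5G17820 had 186 FPKM in flight and 273 FPKM on the ground in Col-0 at 4 days in the authors' deposited table. UPB1 (AT2G47270), which encodes UPBEAT1, had no row in any of the 8 tables.

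Among the called members tied to defence and abiotic stress, the lowest flight fold changes were those of AT2G18150. AT2G18150 (chr2:7892034-7893709, minus strand), whose annotation names a response to nematodes, had 47.9 FPKM in flight and 107 FPKM on the ground in Col-0 at 8 days in the authors' deposited table, a log2 fold change of -1.16 ± 0.19. In WS at 8 days the authors' deposited table gave it 19.1 FPKM in flight and 54.3 FPKM on the ground, a log2 fold change of -1.51 ± 0.42. It had no row in the flight tables of 4 days, an age at which its level was below 10 FPKM in every group. AT4G36430, annotated with response to other organisms, had 50.8 FPKM in flight and 88.5 FPKM on the ground in Col-0 at 8 days in the authors' deposited table (-0.80 ± 0.19).

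PRXCA and PRXCB (AT3G49110 and AT3G49120), which supply hydrogen peroxide in defence and take part in cell elongation, had rows only as 1 merged locus of WS, with 35.2 FPKM in flight and 68.5 FPKM on the ground at 8 days in the authors' deposited table, a log2 fold change of -0.96 ± 0.28. RCI3 (AT1G05260), a cationic peroxidase induced by cold, had 150 FPKM in flight and 283 FPKM on the ground in Col-0 at 4 days in the authors' deposited table, a log2 fold change of -0.92 ± 0.23. Prx37 (AT4G08770), a vascular peroxidase whose overexpression dwarfs plants, had 83.9 FPKM in flight and 108 FPKM on the ground in Col-0 at 4 days in the authors' deposited table, with a q-value of 0.046. Of the 10 members of the list, 0 were called higher in any flight table, and 2, 2, 3 and 0 were called lower in Col-0 at 8 days, Col-0 at 4 days, WS at 8 days and WS at 4 days, where 2.8%, 4.11%, 2.75% and 0.363% of all loci were lower. The 3 in WS at 8 days are 2 loci. RCI3, AT5G64100, AT5G64110 and AT3G49960 lie outside the naming rule and were chosen after their values had been seen.

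AT1G49570 and AT5G19890 were higher in flight in 3 of the 4 flight tables and lower in none. AT1G49570 (chr1:18346958-18349049, plus strand) had 4.61 FPKM in flight and 1.02 FPKM on the ground in Col-0 at 8 days, 9.65 FPKM in flight and 0.658 FPKM on the ground at 4 days (authors' deposited tables). In WS at 8 days the authors' deposited table gave 6.13 FPKM in flight and 1.12 FPKM on the ground. The log2 fold changes were 2.17 ± 0.72, 3.87 ± 0.90 and 2.45 ± 0.83, with ground levels near 1 FPKM in all 3 of the authors' deposited tables. On a log2(FPKM + 1) scale the 4 day value is 2.68. AT5G19890 (chr5:6724076-6725966, minus strand) had 13.8 FPKM in flight and 5.95 FPKM on the ground in Col-0 at 8 days, 11 FPKM in flight and 3.91 FPKM on the ground at 4 days (authors' deposited tables). WS roots of 8 days had 16.5 FPKM in flight and 6.07 FPKM on the ground in the authors' deposited table. Its log2 fold changes of 1.22 ± 0.40, 1.49 ± 0.53 and 1.44 ± 0.47 differ by less than their errors. Its tandem neighbour AT5G19880 had no row in any table.

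The 5 members called in the same direction in 3 or more flight tables that include both accessions at 4 days, or called higher in 3, have the following sequences in the 250 bases before their annotated start (TAIR10.1, RefSeq, 5′ to 3′ on the gene's strand). Capitals mark a W-box core, TTGAC, or a root hair element core, a T followed by 5 free bases and CACG, on either strand.
PRX72, chr5:26517600-26517849, minus strand: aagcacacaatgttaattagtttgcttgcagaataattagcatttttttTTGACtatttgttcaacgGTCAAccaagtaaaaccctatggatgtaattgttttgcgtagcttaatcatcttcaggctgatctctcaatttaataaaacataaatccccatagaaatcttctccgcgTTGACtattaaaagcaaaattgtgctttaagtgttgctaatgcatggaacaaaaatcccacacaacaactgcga
AT5G15180, chr5:4930175-4930424, plus strand: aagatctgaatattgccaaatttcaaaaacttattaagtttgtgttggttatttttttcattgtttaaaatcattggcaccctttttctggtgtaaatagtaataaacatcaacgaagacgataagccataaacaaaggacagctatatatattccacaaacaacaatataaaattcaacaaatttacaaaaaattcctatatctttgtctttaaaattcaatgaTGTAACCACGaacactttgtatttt
AT3G01190, chr3:68666-68915, minus strand: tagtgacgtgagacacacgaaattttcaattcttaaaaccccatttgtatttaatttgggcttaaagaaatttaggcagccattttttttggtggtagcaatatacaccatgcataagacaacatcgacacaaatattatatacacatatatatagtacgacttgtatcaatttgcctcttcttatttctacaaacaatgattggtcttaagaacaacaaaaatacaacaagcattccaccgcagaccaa
AT1G49570, chr1:18346708-18346957, plus strand: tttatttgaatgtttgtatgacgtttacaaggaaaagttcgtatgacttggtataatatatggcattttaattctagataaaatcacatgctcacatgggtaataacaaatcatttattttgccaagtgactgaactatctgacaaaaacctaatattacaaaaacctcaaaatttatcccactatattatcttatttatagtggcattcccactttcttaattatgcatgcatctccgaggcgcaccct
AT5G19890, chr5:6725967-6726216, minus strand: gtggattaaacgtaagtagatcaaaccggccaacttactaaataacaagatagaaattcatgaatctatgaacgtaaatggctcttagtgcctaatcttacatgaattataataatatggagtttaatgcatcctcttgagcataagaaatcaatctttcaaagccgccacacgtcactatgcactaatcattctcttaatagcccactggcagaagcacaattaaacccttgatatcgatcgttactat

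PRX72 holds 3 W-box cores in this window and AT5G15180 holds 1 root hair element core, while the other 3 windows hold neither. Over the family, 24 of 57 windows (42.1%) hold a W-box core, against 44.9% of 27426 windows of protein-coding genes of the same length. A root hair element core occurs in 11 of 57 (19.3%), against 19.3% of all, and in 4 of the 12 members of the root hair list. An E-box, CANNTG, which also matches every G-box, occurs in 35 (61.4%), against 55.3%. The G-box, CACGTG, occurs in 0 of 57, against 6.49% of all, and the AC elements ACCAACC and ACCTACC occur in 2 and 0 of 57, against 2.69% and 1.16%. All motifs were searched on both strands.

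Age moved members in both directions. With age in flight Col-0, 8 members were called higher and 8 lower at 8 days than at 4 days in the authors' deposited table, against 3.33% and 3.45% of all loci. On the ground in Col-0, 4 were higher and 15 lower, against 5.69% and 5.54%. In WS, 5 were higher and 2 lower in flight, against 2.65% and 3.42%, and 9 were higher and 5 lower on the ground, against 2.85% and 3.27%. As shares of the 57, the members called higher were 14.0%, 7.02%, 8.77% and 15.8% in these 4 tables, and those called lower 14.0%, 26.3%, 3.51% and 8.77%. The lower share in flight WS and the higher share on the ground in Col-0 were near the share of all loci. The median log2 fold change of the called members was 0.01 in flight Col-0, -0.68 in ground Col-0, 0.75 in flight WS and 0.55 in ground WS, beside -0.29, 0.30, -0.50 and -0.45 over all called loci.

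AT2G18150, AT2G38390 and PRX71 were called in all 4 age tables. AT2G18150 had 46.8 FPKM at 8 days and 6.55 FPKM at 4 days in flight Col-0, and 104 FPKM at 8 days and 9.28 FPKM at 4 days in ground Col-0 in the authors' deposited tables. In WS it had 17.4 FPKM at 8 days and 2.96 FPKM at 4 days in flight, and 53.0 FPKM at 8 days and 9.09 FPKM at 4 days on the ground in the authors' deposited tables. Its log2 fold changes with age were between 2.54 and 3.48, the highest of the members with age. AT2G18140, its tandem neighbour, has a coding sequence 92.0% identical with a longest identical run of 126 nt and no row in any table, so reads of the 2 genes may not have been separated.

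AT2G38390 also rose with age in each table, by 1.40 ± 0.21 in flight Col-0, 0.55 ± 0.20 in ground Col-0, 0.91 ± 0.31 in flight WS and 0.85 ± 0.28 in ground WS on the log2 scale of the authors' deposited tables. PRX71 fell in each, with 20.0 FPKM at 8 days and 31.5 FPKM at 4 days in flight Col-0, and 17.9 FPKM at 8 days and 45.4 FPKM at 4 days in ground Col-0, in the authors' deposited tables. In WS, PRX71 had 6.75 FPKM at 8 days and 13.5 FPKM at 4 days in flight, and 4.55 FPKM at 8 days and 12 FPKM at 4 days on the ground in the authors' deposited tables.

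Members of the root hair list that were called with age in Col-0 were all lower at 8 days. Of the 12 members, 0 were higher and 4 lower at 8 days in flight, and 0 were higher and 7 lower on the ground, against 3.33% higher and 3.45% lower of all loci in flight and 5.69% and 5.54% on the ground, with log2 fold changes from -0.41 to -0.82 on the ground in the authors' deposited table. AT4G26010, a root hair peroxidase, had 87.9 FPKM at 8 days and 126 FPKM at 4 days in flight Col-0, 99.9 FPKM at 8 days and 139 FPKM at 4 days in ground Col-0, and 81.4 FPKM at 8 days and 122 FPKM at 4 days in ground WS in the authors' deposited tables. RHS19 (AT5G67400, root hair specific 19) had 72.6 FPKM at 8 days and 113 FPKM at 4 days in flight Col-0, and 88.2 FPKM at 8 days and 141 FPKM at 4 days in ground Col-0, in the authors' deposited tables. A second locus with its identifier in flight Col-0 had 9.02 FPKM at 8 days and 25.5 FPKM at 4 days and was left out of the counts. AT3G01190 fell with age by nearly the same amount in flight Col-0 (-0.67 ± 0.21) and in ground Col-0 (-0.66 ± 0.21) in the authors' deposited tables, and AT3G49960, a root hair gene, was called in ground Col-0 alone (-0.41 ± 0.28). Of the 10 root hair markers, 6 were lower at 8 days in ground Col-0, with a summed level of 231 FPKM at 8 days and 432 FPKM at 4 days in the authors' deposited table, and 0 were called in flight Col-0. In WS, 2 of 10 were lower on the ground and 0 in flight. The part of root hair number in the fall of these members was not tested.

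In WS on the ground, 6 of the 10 members of the defence list were called higher at 8 days and 0 lower, against 2.85% and 3.27% of all loci. The 6 members are 5 loci, since PRXCA and PRXCB share one, and AT4G36430 shares its locus with AT4G36420. Prx37 had 180 FPKM at 8 days and 107 FPKM at 4 days in flight WS in the authors' deposited table, and 211 FPKM at 8 days and 100.0 FPKM at 4 days in ground WS. The merged locus of PRXCA and PRXCB had 66.9 FPKM at 8 days and 36.6 FPKM at 4 days in ground WS, and AT5G06730 had 6.14 FPKM at 8 days and 2.33 FPKM at 4 days there, in the authors' deposited table. AT4G36430 had 49.6 FPKM at 8 days and 25.0 FPKM at 4 days in flight Col-0, and 85.5 FPKM at 8 days and 21.8 FPKM at 4 days in ground Col-0, in the authors' deposited tables. RCI3 went the other way in ground Col-0, with 181 FPKM at 8 days and 289 FPKM at 4 days in the authors' deposited table.

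AT2G37130 fell with age in Col-0, with 131 FPKM at 8 days and 213 FPKM at 4 days in flight, and 164 FPKM at 8 days and 277 FPKM at 4 days on the ground, in the authors' deposited tables. Both members that UPBEAT1 represses fell on the ground in Col-0, AT4G11290 with 89.8 FPKM at 8 days and 175 FPKM at 4 days, and AT5G17820 with 159 FPKM at 8 days and 279 FPKM at 4 days, in the authors' deposited table. In flight Col-0, AT5G17820 alone of the pair was called, at 152 FPKM at 8 days and 193 FPKM at 4 days in the authors' deposited table.

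Several members outside the role lists, and AT4G33420 of the lignin list, also changed with age. AT3G21770 was higher at 8 days in flight Col-0 (216 FPKM against 167 FPKM at 4 days) and in ground WS (264 FPKM against 203 FPKM at 4 days) in the authors' deposited tables. AT2G38380 had 288 FPKM at 8 days and 197 FPKM at 4 days in ground WS, while AT5G15180 was lower at 8 days in ground Col-0 (-0.74 ± 0.30), in the authors' deposited tables. AT1G68850 had 18.6 FPKM at 8 days and 5.82 FPKM at 4 days in flight Col-0, and 26.2 FPKM at 8 days and 13.3 FPKM at 4 days in ground Col-0, in the authors' deposited tables. AT1G44970 had 10.6 FPKM at 8 days and 5.18 FPKM at 4 days in flight Col-0 in the authors' deposited table. AT1G49570 had 4.50 FPKM at 8 days and 10.0 FPKM at 4 days there in the authors' deposited table, so these 2 weakly expressed members moved in opposite directions. AT2G18980 was lower at 8 days by -0.40 ± 0.25 in flight Col-0, -0.43 ± 0.26 in ground Col-0 and -0.65 ± 0.31 in ground WS in the authors' deposited tables. AT5G19890 had 15.1 FPKM at 8 days and 5.55 FPKM at 4 days in flight WS, AT4G30170 had 292 FPKM at 8 days and 185 FPKM at 4 days there, in the authors' deposited table. In the same table of the authors, AT5G64110 had 1.83 FPKM at 8 days and 4.68 FPKM at 4 days. AT4G33420, a vascular member of the lignin list, had 40.6 FPKM at 8 days and 65.1 FPKM at 4 days in ground WS in the authors' deposited table.

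For 2 members the age change in Col-0 ran in opposite directions in flight and on the ground. PRX72 had 62.2 FPKM at 8 days and 36.9 FPKM at 4 days in flight, a log2 fold change of 0.75 ± 0.24 in the authors' deposited table. On the ground it had 78.6 FPKM at 8 days and 162 FPKM at 4 days, a log2 fold change of -1.04 ± 0.22, in the authors' deposited tables. AT3G32980 had 780 FPKM at 8 days and 538 FPKM at 4 days in flight (0.54 ± 0.19), and 929 FPKM at 8 days and 1401 FPKM at 4 days on the ground (-0.59 ± 0.18), in the authors' deposited tables. For both, the 4 day flight group was the lowest of the 4 groups and the 4 day ground group the highest, with both 8 day groups between them.

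**Figure D4:**
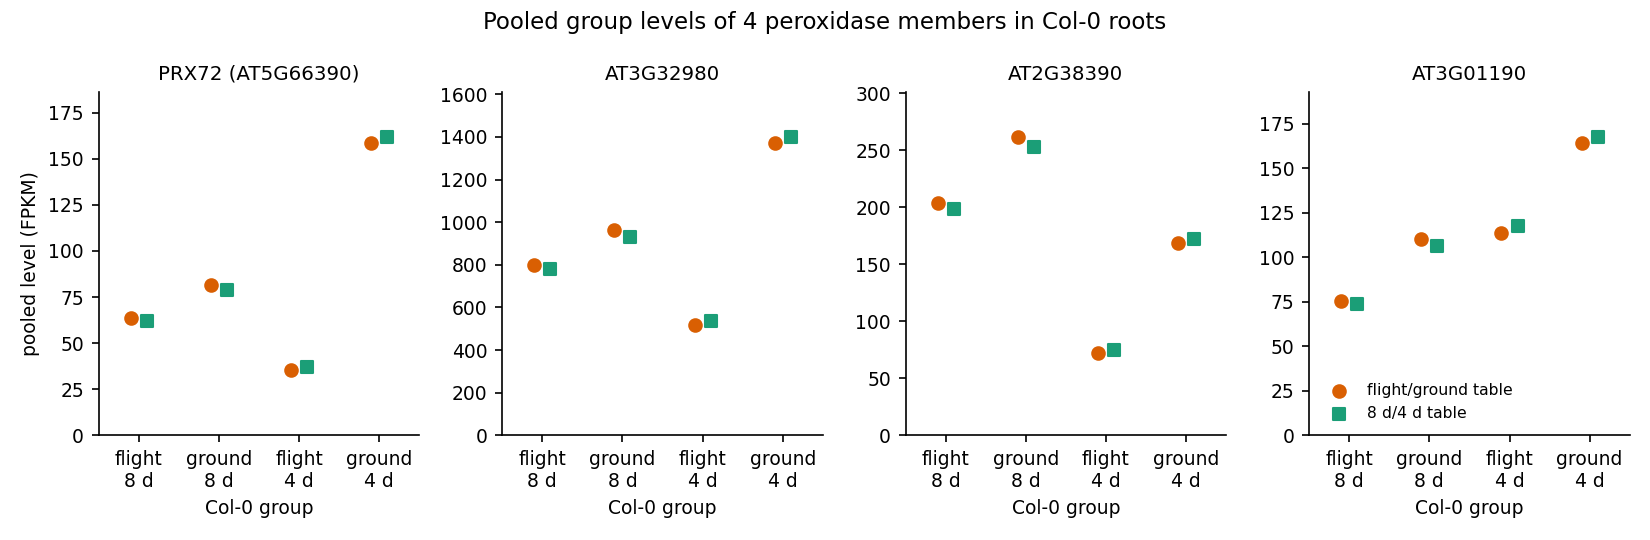
Pooled levels in FPKM (vertical axes from 0) of PRX72, AT3G32980, AT2G38390 and AT3G01190 in the 4 Col-0 groups, with circles from the flight over ground tables and squares from the 8 over 4 day tables; no error is shown because the tables hold 1 level per group. PRX72 and AT3G32980 are highest in ground roots of 4 days and lowest in flight roots of 4 days, while AT2G38390 is highest in ground roots of 8 days.

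The difference between 2 fold changes was tested for every locus listed in both of 2 tables that share no library, as the difference over its summed error, with a normal reference and Benjamini-Hochberg adjustment over all 2309 tests. The age change of PRX72 in flight less that on the ground was 1.80 ± 0.33 on the log2 scale (two-sided adjusted p = 3.43e-05, n = 16 libraries), and that of AT3G32980 was 1.13 ± 0.26 (adjusted p = 0.00469). The same 4 groups give the change with flight at 8 days less that at 4 days, which is the same quantity: 1.80 ± 0.33 for PRX72 and 1.13 ± 0.27 for AT3G32980 (adjusted p = 0.00513, n = 16 libraries). With a t reference of 12 degrees of freedom, both calls were lost, with adjusted p = 0.10 for PRX72 and 0.229 for AT3G32980 (n = 16 libraries). In WS, the locus that PRX72 shares with AT5G66380 gave a change with flight at 8 days less that at 4 days of 0.34 ± 0.43, which did not pass, and AT3G32980 had a row in 1 WS table only.

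Of the 45 member tests, over 21 loci, 4 passed (8.89%), those of PRX72 and AT3G32980, against 1.56% of all 2309 tests. These 4 are only 2 quantities, each taken along 2 ways through the same groups. Only loci called in both tables entered, and both members were called in opposite directions with age. That selection favours a large difference, so a pass adds little to those calls. The SE in these tests does not match the authors' p-values in most rows of members. A difference that did not pass is therefore not shown to be absent. In the 2 pairs of Col-0 tables that hold them, 2 of 13 members passed between the age changes in flight and on the ground, against 1.47% of all loci, and 2 of 9 between the flight changes at 8 and 4 days, against 3.47%. In the other pairs, 0 members passed: of 7 between the accessions for flight at 8 days (2.19% of all loci), of 2 for flight at 4 days (0%), of 1 between the ages in WS (5.26%), of 5 between flight and ground age changes in WS (1.34%), of 3 between the accessions for age in flight (0.699%) and of 5 for age on the ground (0.541%). The next member by adjusted p was AT2G38390, whose age change in Col-0 in flight less that on the ground was 0.85 ± 0.29, which did not pass (adjusted p = 0.128, n = 16 libraries). For AT4G36430 the age change in Col-0 in flight less that on the ground was -0.98 ± 0.38, which did not pass either (adjusted p = 0.227, n = 16 libraries).

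Members listed in both of 2 flight tables without a shared library moved in 1 direction. Between the accessions, 8 members were shared at 8 days, 66.7% of the 12 in Col-0 and 61.5% of the 13 in WS, and 3 at 4 days, 16.7% of the 18 in Col-0 and 100% of the 3 in WS. Between the ages, Col-0 shared 9 members, 75% of the 12 at 8 days and 50% of the 18 at 4 days. WS shared 1, PRX72 in its merged locus, 7.69% of the 13 at 8 days and 33.3% of the 3 at 4 days. Each of these shared members had the same sign in both tables. Over all loci, 137 could be matched by name between the accessions at 8 days, of 812 called in Col-0 and 888 in WS. At 4 days 35 could be matched, of 1414 and 128, and between the ages 317 could in Col-0 and 38 in WS. Members were matched by gene, but all loci by the full set of genes in a locus, so the counts are not alike. Matched as all loci were, 7 members were shared between the accessions at 8 days and 2 at 4 days. How often the signs of all matched loci agreed was not counted. Between the age changes in flight and on the ground, Col-0 shared 13 members, of which PRX72 and AT3G32980 had opposite signs, and WS shared 5 with the same sign. Over all loci, 679 could be matched there in Col-0, of 1357 called in flight and 2235 on the ground. In WS 447 could be matched, of 1075 and 1104. Of the 32 listed members, 1 was called for flight alone (AT1G30870) and 8 for age alone. In Col-0, 1357 and 2235 loci were called with age, against 812 and 1414 with flight. In WS, 1075 and 1104 loci were called with age, against 888 and 128 with flight. The same split was not counted over all listed genes. The larger number of members called for age alone is therefore not shown to be particular to peroxidases.

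The other 25 members had no row in any table. They include 2 identical copies, AT1G05240 and PRX2 (AT1G05250), whose coding sequences of 978 nt match in every base, so reads from the coding part could not tell them apart. They also include Prx37's neighbour AT4G08780, 93.8% identical to it in coding sequence, and the pair AT4G37520 and AT4G37530, at 92.4%. PRXCA and PRXCB are 90.7% identical. Over all 1596 pairs of members the median identity of aligned coding sequence was 60.2%, and 6 pairs, all tandem neighbours, were at 90% or more. Among the 16 family genes outside the member list, AT2G35380 alone had rows, in 6 tables, and like most called members it was lower in flight. The authors' deposited tables gave it 74.2 FPKM in flight and 98.8 FPKM on the ground in Col-0 at 8 days, 26.5 FPKM in flight and 56.4 FPKM on the ground at 4 days, and 61.2 FPKM in flight and 78.9 FPKM on the ground in WS at 8 days. PER64, the peroxidase of the Casparian strip, had no row.

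Of the listed enzymes that make or remove reactive oxygen species, those with a row in a flight table had it at 8 days. Of 10 NADPH oxidases, which produce superoxide at the plasma membrane, 1 was called, RBOHA in Col-0 at 8 days (10%, against 2.8% of all loci lower). It had 0.736 FPKM in flight and 1.75 FPKM on the ground in the authors' deposited table. Of 9 catalases, ascorbate peroxidases and superoxide dismutases, 2 were lower in Col-0 at 8 days (22.2%, against 2.8% of all loci), 1 was lower in WS at 8 days (11.1%, against 2.75%) and 0 were called at 4 days. Markers of green tissue moved with flight in 3 comparisons. In Col-0 at 8 days 5 of 10 were lower, with a summed level of 241 FPKM in flight and 451 FPKM on the ground, and at 4 days 2 of 10 were lower, with 207 FPKM in flight and 267 FPKM on the ground, in the authors' deposited tables. Over all loci, 2.8% and 4.11% were lower there. In WS at 4 days 4 of 10 markers were higher, against 0.352% of all loci, with 474 FPKM in flight and 221 FPKM on the ground in the authors' deposited table. With age, the green tissue markers that were called were lower at 8 days in all 4 age tables, 6 of 10 in flight Col-0, 3 in ground Col-0, 5 in flight WS and 4 in ground WS. Over all loci, 3.45%, 5.54%, 3.42% and 3.27% were lower in these tables. Each summed level of these markers covers only those called in that table, so sums from different tables cannot be set against each other. RBCS1A, at 208 FPKM in flight Col-0 at 4 days, is in the flight Col-0 age sum and not in the ground Col-0 one. Their summed level was 142 FPKM at 8 days and 277 FPKM at 4 days in flight Col-0, and 8.99 FPKM at 8 days and 57.4 FPKM at 4 days in ground Col-0, in the authors' deposited tables. In WS it was 107 FPKM at 8 days and 505 FPKM at 4 days in flight, and 98.6 FPKM at 8 days and 240 FPKM at 4 days on the ground, in the authors' deposited tables. Of 5 markers of the root as a tissue, SCR, a regulator of endodermis and stem cell niche, had rows in 4 tables, at 14.0 FPKM in flight and 10.7 FPKM on the ground in Col-0 at 8 days in the authors' deposited table. In the other 3, SCR was lower at 8 days than at 4 days, by log2 fold changes of -0.85 in ground Col-0, -1.10 in flight WS and -0.75 in ground WS in the authors' deposited tables. Of 4 seed markers, GEA6 was higher in flight in WS at 4 days, where 0.352% of all loci were higher. It had 452 FPKM in flight and 191 FPKM on the ground in the authors' deposited table. No defining marker could be shown to be at 0, since genes that were not called have no row. The part of green tissue and seed RNA in the peroxidase values, with flight or with age, was not tested.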

How the data were processed

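Messenger RNA of dissected roots was sequenced in 32 libraries from full-length cDNA made with a kit that does not mark the strand, per the labels' protocols, so antisense transcripts are not told apart. Per the submitters' processing notes, the tools include STAR 2.5.1b, Cufflinks, Cuffdiff and Picard, besides FastQC 0.11.2 and Trimmomatic 0.36, and the build is TAIR10. Cuffdiff settings and the depth per library are not given in these sources.

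The deposited FPKM values are the authors' level per group, and the deposited log2 fold change is the ratio of 2 such levels, with the sign of the age tables turned here to read 8 over 4 days. The deposited test statistic is the authors' score per locus. Each deposited p-value and q-value is the authors' own, adjusted by them within a table, with a smallest p of 5e-05, which many loci share, so their q-values recur. The 8 tables list only significant loci and hold 0 columns per library. Replicate numbers could not be used.

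An SE is the log2 fold change over the test statistic. The authors' p-values do not follow from this SE under a normal reference in most rows of members. For AT1G30870 in Col-0 at 4 days, -1.08 ± 0.65 had an authors' p-value of 0.0029, where a normal reference gives a larger one. The same holds for AT5G15180 in Col-0 at 8 days (-0.46 ± 0.29, authors' p-value 0.00185). The difference tests rest on this SE. How many loci a table tested was worked out from p, rank and q. Differences between 2 tables used a two-sided normal test. Simulated data checked its calculation, not the choice of a normal over a t reference. The level of 1 group in 2 tables differed, by medians between -0.12 and 0.13 on the log2 scale. All 3390 Col-0 genes compared overlapped their TAIR10.1 gene, and 5.32% of WS genes did, so positions are those of TAIR10.1 and were not used for WS. Coding sequences were aligned globally with Biopython 1.88. The members, their role lists and the marker lists were chosen with earlier results of these data known. Members named were those called in 2 or more flight tables, all called per flight table (or 5 per direction above 10), the 5 largest per direction per age table at 5 FPKM or more, and those with opposite directions or a passing difference. Python 3.11.15, pandas 2.3.3, NumPy 2.4.6 and SciPy 1.17.1 were used.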

Additional observations from a re-analysis of the deposited data

Results flagged for a closer look

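A pair of members had a fold change that differed between groups by a test of the difference under a normal reference. Only loci called in both tables entered it, and both members were already called in opposite directions with age, which favours a large difference. For PRX72, the lignin peroxidase, the log2 change from 4 to 8 days in Col-0 was 1.80 higher in flight than on the ground, and the log2 change with flight was 1.80 higher at 8 days than at 4 days. For AT3G32980 the same differences were 1.13 and 1.13. In each case the pair of values is 1 quantity taken along 2 ways through the same 4 groups. A normal reference was used, and both calls were lost with the t reference.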

How the results depend on the processing

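With a limit of 1 on the size of the log2 fold change, lower calls in flight were 1 of 9 in Col-0 at 8 days, 6 of 16 in Col-0 at 4 days, 1 of 11 in WS at 8 days and 1 of 3 in WS at 4 days. Under that limit the age calls in Col-0 were 4 higher and 1 lower in flight and 2 higher and 2 lower on the ground, and in WS 2 higher and 1 lower in flight and 3 higher and 2 lower on the ground. With a q-value of 0.01 or less, lower calls were 7 in WS at 8 days and 0 in WS at 4 days for flight, and 0 for age in flight WS. With a floor of 5 FPKM on the group of higher level, lower calls for age in flight WS were 1. With the t reference, 0 of the 4 member differences passed. These alternatives drop members by construction. The share of all loci was not counted at the limits on fold change, q-value and level. Whether the members called exceed that share there is therefore not shown. The other counts stayed within 1.5 times under these settings, with loci of 1 gene only and with the whole family of 73 genes, an alternative chosen after seeing the data. On the log2(FPKM + 1) scale 94 fold changes moved by less than their SE and 1, that of AT1G49570 in Col-0 at 4 days, by more. No fold change or difference changed sign. No paired analysis was possible because the tables hold 1 value per group, and for the same reason leaving out a replicate was not run. Values per library, depth and the levels of members that were not called were not analysed here, so replicate outliers and changes below the authors' threshold cannot be seen.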
